A study of Mus musculus with 6 samples.

Results

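The *Igf2r* and *Airn* imprinted locus of mouse chromosome 17 was taken here as every CpG from position 12680000 to 12870000 of mm10 (the GRCm38 assembly) with at least 10 reads, summed over both replicates, in each of 3 pluripotent cell types. These criteria left 52 of 2098 CpGs in the sequence of the locus, out of 1106981 CpGs compared in the whole data set. The methylation level of a CpG is the share of its reads that kept a cytosine after bisulfite treatment. The comparison of interest was between the promoter island of *Igf2r* and the promoter island of *Airn* within *Igf2r*. Reduced representation bisulfite sequencing (RRBS), which reads the ends of DNA pieces cut by MspI at CCGG, was done on 2 libraries of each cell type. C-iPSCs were chemically induced pluripotent stem cells from mouse fibroblasts. Their recipe held VPA, tranylcypromine, CHIR99021, Forskolin, RepSox, AM580 and EPZ004777 beside bFGF, and a second stage added DZNep, SGC0946 and 5-Aza-2′-deoxycytidine, an inhibitor of DNA methylation. 4F-iPSCs were made from mouse fibroblasts with the transcription factors Oct4, Sox2, Klf4 and c-Myc on retroviruses. The fibroblasts of both were OG2-MEFs, embryonic fibroblasts with a GFP reporter of Oct4, and colonies with GFP were picked. mESCs were the E14 embryonic stem cell line. All were male, C-iPSCs and 4F-iPSCs at passage 5 to 10 and mESCs at passage 20 to 30. All were grown in serum and LIF with CHIR99021 and PD0325901 (2i). The labels place them on mitomycin C-treated fibroblast feeders that were taken away before collection, whereas the methods of the study name plates coated with gelatin. The sources do not say whether the replicates were separate lines or cultures, so the p-values measure the spread between these libraries, which may be technical.

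*Igf2r* encodes the cation-independent mannose 6-phosphate receptor, which carries lysosomal enzymes and takes up insulin-like growth factor 2 for degradation. In most mouse tissues it is transcribed from the maternal chromosome. *Airn* is a long noncoding RNA read in the opposite direction from a CpG island inside *Igf2r*. That island is methylated on the maternal chromosome from the oocyte onward, and the unmethylated paternal copy gives the RNA that silences *Igf2r* in cis. The *Igf2r* promoter itself gains methylation on the paternal chromosome only later in development. A level summed over reads does not tell the parental copies apart, and a mixture of cells cannot be told apart from a mixture of copies within each cell.

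In the GENCODE annotation, *Igf2r* runs on the minus strand from 12769664 down to 12682406 and *Airn* on the plus strand from 12741311 to 12860136. The *Airn* start island spans chr17:12741262-12742677, which is 1416 bp with 94 CpGs and 5 MspI sites, and its compared part lies in *Igf2r* intron 2. The *Igf2r* start island spans chr17:12768991-12770155, which is 1165 bp with 115 CpGs and 10 MspI sites. The criteria found 14 islands in the locus, and these were the 2 with at least 3 compared CpGs. Of the 52 compared CpGs, 20 lay in the *Airn* island, from 279 to 1109 bp downstream of the *Airn* start in its first intron. Another 22 lay in the *Igf2r* island, from 171 bp upstream to 452 bp downstream of the *Igf2r* start, and 10 lay elsewhere. *Mas1* and the other annotated genes of the locus held no compared CpG. All of them came from 9 MspI fragments, and the CpGs of a fragment share reads, so they are not independent of each other. The 3 fragments of the *Airn* island are shown because C-iPSCs lay below mESCs in them, with compared CpGs in capitals, on the plus strand of GRCm38 as held by RefSeq. They show 18 of the 20 compared CpGs. The other two, 12741749 and 12742420, lie in MspI sites just past the ends of fragments 1 and 3 and were counted in their levels. Likewise 12742376, the first CpG shown in fragment 3, was read from the minus strand and counted in fragment 2.
Airn fragment 1, chr17:12741590-12741748: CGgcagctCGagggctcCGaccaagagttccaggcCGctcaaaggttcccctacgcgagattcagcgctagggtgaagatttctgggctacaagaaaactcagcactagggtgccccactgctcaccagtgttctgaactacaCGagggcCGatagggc
Airn fragment 2, chr17:12742236-12742375: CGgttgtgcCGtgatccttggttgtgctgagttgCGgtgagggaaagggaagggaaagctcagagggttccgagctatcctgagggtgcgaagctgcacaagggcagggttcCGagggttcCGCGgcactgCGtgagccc
Airn fragment 3, chr17:12742376-12742419: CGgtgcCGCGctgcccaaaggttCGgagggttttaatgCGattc

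The fragments of the *Igf2r* island, whose levels were low in every library, are given for comparison, with the same use of capitals and the same treatment of MspI sites at their ends. The first lies in intron 1. The second starts at 12769700 and is shown from the base just upstream of the RefSeq start, and the third lies upstream of it.
Igf2r fragment 1, chr17:12769205-12769249: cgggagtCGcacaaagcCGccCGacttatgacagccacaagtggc
Igf2r fragment 2, chr17:12769707-12769786: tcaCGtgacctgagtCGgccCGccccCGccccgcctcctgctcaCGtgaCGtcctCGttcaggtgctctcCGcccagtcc
Igf2r fragment 3, chr17:12769787-12769834: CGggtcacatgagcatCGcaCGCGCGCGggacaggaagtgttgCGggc

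The 6 libraries held 53694199 to 96534037 CpG reads, with a median of 31 to 54 reads at a CpG that was read. At the 52 CpGs of the locus the median depth of a library was 67.5 to 121.5 reads. Over all compared CpGs of the genome, 4F-iPSCs had the highest mean level, 33.4% ± 0.952 (SD, n = 2), C-iPSCs had 27.9% ± 2.81 (SD, n = 2) and mESCs had 21.4% ± 1.18 (SD, n = 2). Promoters of pluripotency genes were low throughout. *Nanog*, *Pou5f1* and *Zfp42* had 0% to 20.8% over their 2, 7 and 7 compared CpGs in any library. All of the cell types are pluripotent, so these levels cannot tell their labels apart. *Dppa3* and *Tdgf1* had no compared CpG.

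The *Airn* island was nearly unmethylated in C-iPSCs, intermediate in mESCs and highest in 4F-iPSCs. The mean over its 20 CpGs was 5.11% and 4.36% in the C-iPSC libraries, 32.2% and 36.6% in the mESC libraries, and 55.2% and 60.3% in the 4F-iPSC libraries. The 3 cell types did not overlap, for which no share over all islands is given. C-iPSCs averaged 4.74% ± 0.529 (SD, n = 2), mESCs 34.4% ± 3.10 (SD, n = 2) and 4F-iPSCs 57.7% ± 3.63 (SD, n = 2). With the reads of both replicates and all CpGs summed, 103 of 2318 CpG reads were methylated in C-iPSCs, 539 of 1512 in mESCs and 1413 of 2616 in 4F-iPSCs. The 95% Wilson intervals of these shares were 3.68% to 5.36%, 33.3% to 38.1% and 52.1% to 55.9%. These intervals cover counting error only, and they are too narrow because the CpGs of a read pair are not independent and RRBS reads carry no molecular identifiers.

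**Figure D1:**
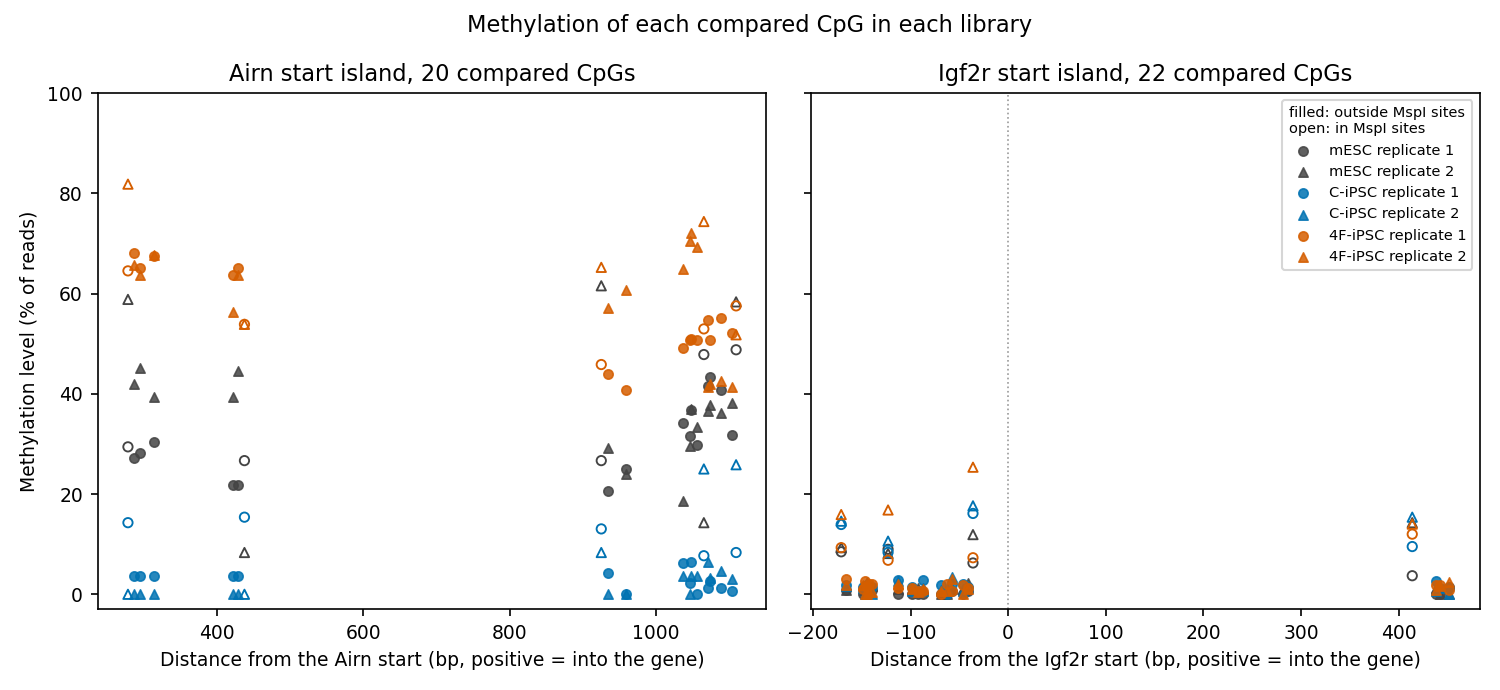
Methylation level (% of reads) of each compared CpG against its distance from the gene start (bp), for the Airn island (20 CpGs, left) and the Igf2r island (22 CpGs, right). Colours are cell types, circles replicate 1 and triangles replicate 2, and open symbols are CpGs in MspI sites. Filled symbols of C-iPSCs in the Airn island stay at or below 6.52%, those of mESCs lie between 18.5% and 45.2% and those of 4F-iPSCs between 40.7% and 72.1%.

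C-iPSCs were 29.7 percentage points below mESCs at the *Airn* island, with a standard error of 2.22 from the library spread (a difference of -29.7). A quasi-binomial model of the reads of all islands, with dispersions shrunken by limma, gave an adjusted p of 3.54e-06 (Benjamini-Hochberg over 39850 islands). Among those islands 0.0954% were called lower in C-iPSCs. The median difference over all islands was 3.04 points in the other direction, and 11 of 39846 islands, the *Airn* island included, had a difference as low. Leaving out mESC replicate 1 gave a difference of -31.8 points and an adjusted p of 0.194 in the same limma-based model, so the call was lost although the difference was as large. A fit without a library leaves 1 in that cell type, which is assumed to vary like the others. The exact permutation test over 2 against 2 libraries gave p = 0.333, two-sided, the smallest it can give.

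4F-iPSCs were 23.3 points above mESCs at the *Airn* island, with a standard error of 3.37 and an adjusted p of 0.00015 in the limma-based model. A call in this direction was common, being made for 49.4% of all islands, with a median difference of 9.42 points. 4F-iPSCs were 53.0 points above C-iPSCs, with a standard error of 2.59 and an adjusted p of 2.99e-17, where 15.4% of all islands were called higher and the median difference was 4.32 points. Both comparisons gave p = 0.333 in the exact permutation test, the smallest possible. Both also passed in fits without any one library, under the same assumption on the spread.

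The model took the between-library variance of an island from islands of like depth with summed levels from 0.1 to 0.9 in both cell types. The summed level of C-iPSCs at the *Airn* island, 4.44%, lay below that range. At the *Airn* island the variance used was 8.09, 20.4 and 19.0 times the binomial one for 4F-iPSCs against mESCs, C-iPSCs against mESCs and 4F-iPSCs against C-iPSCs. The variance seen at the island itself was lower, at 0.886, 4.81 and 4.01 times the binomial one.

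CpG by CpG, all 20 positions ranked the cell types alike, since the summed level of C-iPSCs was below and that of 4F-iPSCs above that of mESCs at each. Both C-iPSC libraries lay below both mESC libraries at 18 of 20 CpGs, where 4.26% of CpGs in the genome had this pattern. Both 4F-iPSC libraries lay above both mESC libraries at 16 of 20, against 44.3% of all CpGs, and above both C-iPSC libraries at 20 of 20, against 30.5%. A strongly differential CpG was defined by a difference above 0.333 in the level and an unadjusted p under 0.05 in Fisher's exact test, run on reads summed over replicates. That test covers counting error only and takes PCR copies as independent reads. All 20 CpGs of the island were called strongly higher for 4F-iPSCs against C-iPSCs, where the share was 1.35% over all compared CpGs. Their differences ran from 37.1 to 65.1 points, and 17 of the 20 passed the quasi-binomial model, which includes the spread between libraries. Counts of CpGs by this model, here and below, have no share over all compared CpGs beside them and are not read further. Against mESCs, 6 of 20 were strongly lower in C-iPSCs, with 0.0374% of all compared CpGs called in that direction. Their number was 10 without mESC replicate 1 and 4 by the quasi-binomial model. The 20 differences between C-iPSCs and mESCs ran from -37.8 to -8.52 points around a median of -31.5, so many lay close to the threshold. Only 1 of the 20 CpGs was strongly higher in 4F-iPSCs than in mESCs, against 14.3% of all compared CpGs, and the differences ran from 1.18 to 35.3 points.

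The fragments differed in how far 4F-iPSCs lay above mESCs. In fragment 1, the levels were 5.56% and 0% in the C-iPSC libraries, 26.3% and 41.4% in the mESC libraries, and 65.1% and 64.9% in the 4F-iPSC libraries. The value of 0% rests on at most 14 reads at a CpG, which allows a share of up to 21.4%. In fragment 2, they were 4.22% and 4.12% in C-iPSCs, 31.3% and 29.9% in mESCs, and 48.3% and 66.9% in 4F-iPSCs. In fragment 3, the most deeply read, they were 2.29% and 6.59% in C-iPSCs, 40.4% and 39.5% in mESCs, and 53.7% and 43.0% in 4F-iPSCs. No fragment had overlap between libraries of different cell types, but in fragment 3 the lower 4F-iPSC library came close to mESCs. This has no share over all fragments beside it and is not read further. At single CpGs of the genome, both 4F-iPSC libraries lay above both mESC libraries in 44.3%. The 4F-iPSC replicates also changed places, replicate 2 being the higher in fragment 2 and replicate 1 in fragment 3.

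CpGs were read at 12 to 44 reads a library in fragment 1, 24 to 62 in fragment 2 and 72 to 192 in fragment 3, leaving out CpGs in MspI sites. Fragment 3 therefore had the smallest counting error, but it had the smallest spread between replicates only in mESCs. In fragments 1, 2 and 3 the SD (n = 2) was 0.20, 13.2 and 7.55 points in 4F-iPSCs. It was 10.7, 0.978 and 0.652 points in mESCs, and 3.93, 0.0659 and 3.04 points in C-iPSCs. The most read CpG of the island, at 12742414 in fragment 3, had 801 reads over the 6 libraries. Its level was 0.654% and 3.14% in C-iPSCs, 31.7% and 38.2% in mESCs, and 52.1% and 41.4% in 4F-iPSCs. The highest summed level in 4F-iPSCs, 71.7% of 53 reads, was at 12741590, where C-iPSCs had 9.52% and mESCs 44.1%. The lowest in 4F-iPSCs, 46.1% of 293 reads, was at 12742384, where C-iPSCs had 2.92% and mESCs 40.8%.

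The strands of the reads were compared because reads from the plus and the minus strand come from different DNA strands of the sample. In C-iPSCs no strand of any *Airn* fragment exceeded 7.14%, and in 4F-iPSCs none was below 41.0%, over CpGs outside MspI sites. In mESCs the strand levels ran from 12.7% to 63.4%. The widest gaps were in mESC replicate 2. There fragment 1 had 63.4% on the plus and 14.3% on the minus strand, and fragment 2 had 44.9% and 12.7%. In fragment 3 the order was the opposite, with 19.6% on the plus and 55.9% on the minus strand, from up to 39 and 37 reads at a CpG. mESC replicate 1 had 20.5% and 31.6%, 21.1% and 35.9%, and 41.8% and 36.8% on the plus and minus strands of fragments 1, 2 and 3. The cause of the gaps was not tested. The strand levels of mESCs overlapped those of 4F-iPSCs but not those of C-iPSCs.

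**Figure D2:**
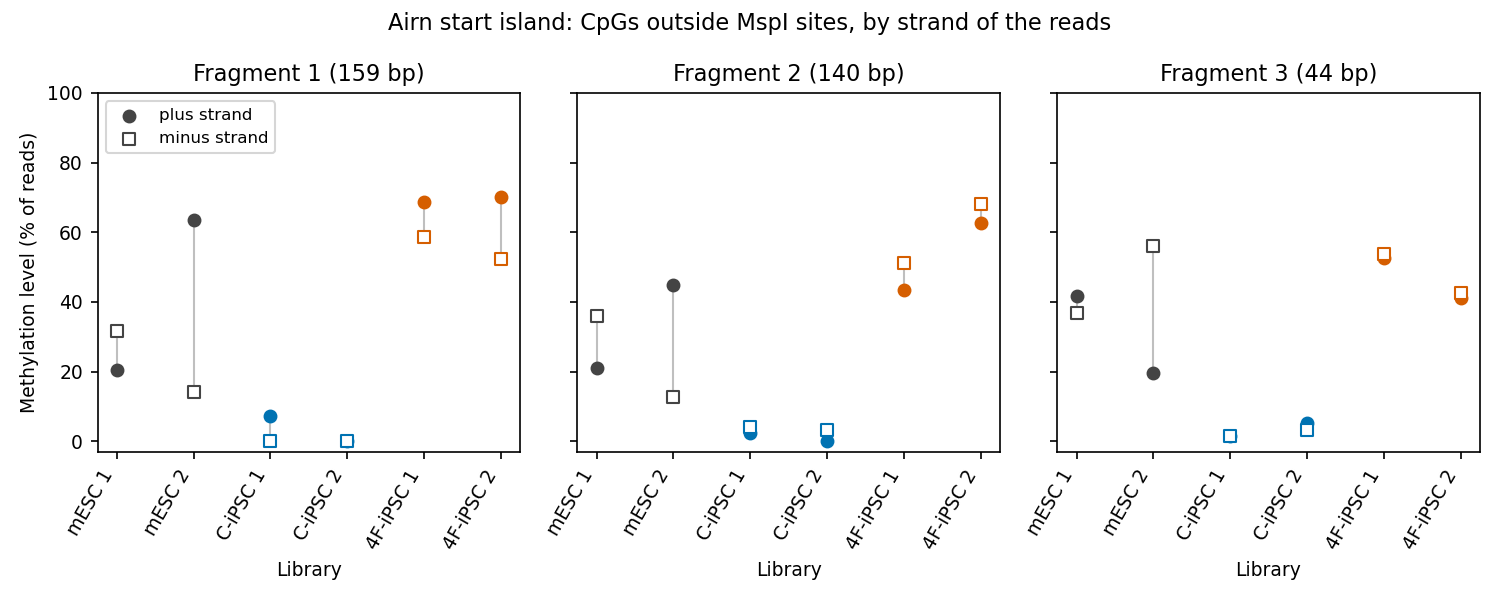
Methylation level (% of reads) of the 3 Airn fragments in each library, split by the strand of the reads (filled circles plus, open squares minus; CpGs in MspI sites left out). C-iPSC points stay at or below 7.14%, 4F-iPSC points at or above 41.0%, and the strands of mESC replicate 2 lie far apart, as 63.4% and 14.3% in fragment 1.

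TGCCGC is the sequence bound, when its CpG is methylated, by ZFP57, a zinc finger protein that keeps methylation at imprinted regions. The letters were searched on both strands and found 8 times in the *Airn* island. Among islands of 1274 to 1558 bp with at least 3 compared CpGs, 70.1% hold them at least once. That share is for at least 1 match and does not say whether 8 matches are unusual. The *Igf2r* island holds 1 match, as 59.0% of islands of 1048 to 1282 bp hold at least 1. A CpG was compared in 2 of the *Airn* matches. At 12742359 the level was 6.52% and 3.57% in C-iPSCs, 36.8% and 37.0% in mESCs, and 50.8% and 72.1% in 4F-iPSCs. At 12742382 it was 1.3% and 6.38% in C-iPSCs, 41.5% and 36.5% in mESCs, and 54.7% and 41.4% in 4F-iPSCs. At both CpGs C-iPSCs lay lowest. The libraries of 4F-iPSCs and mESCs were apart at the first CpG and overlapped at the second.

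The *Igf2r* promoter island was nearly unmethylated in every library. The mean over its 22 CpGs was 3.51% and 3.48% in C-iPSCs, 1.56% and 2.86% in mESCs, and 2.81% and 4.17% in 4F-iPSCs. No cell type stood apart from the other two at this island. The differences from mESCs were 1.28 points for 4F-iPSCs (standard error 0.942) and 1.28 points for C-iPSCs (standard error 0.65), with adjusted p values of 0.568 and 1 in the limma-based model. 4F-iPSCs and C-iPSCs differed by -0.0038 points, with a standard error of 0.682 and an adjusted p of 0.98 in the same model. In these 3 comparisons the model used variances of 17.8, 34.8 and 34.0 times the binomial one. Those seen at the island itself were lower, at 5.88, 3.04 and 3.10 times. The used variances came from islands with levels of at least 0.1, and this island lay below that. So these p-values do not show that the levels were equal. None of the 22 CpGs was strongly differential in any comparison by Fisher's exact test. Over all compared CpGs, 14.3% were strongly higher in 4F-iPSCs than in mESCs and 2.9% in C-iPSCs than in mESCs. For 4F-iPSCs against C-iPSCs the share was 1.35%, and at most 0.0374% were strongly lower in any comparison. Without the size threshold, 1 passed an unadjusted p under 0.05 between C-iPSCs and mESCs and 0 in each of the other two comparisons. These last counts have no share over all compared CpGs beside them and are not read further. The differences at single CpGs ran from -1.84 to 7.93 points.

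The highest levels of the *Igf2r* island were at the 4 CpGs that lie in MspI sites, at the ends of the fragments. They averaged 12% and 14.6% in C-iPSCs, 6.85% and 10.9% in mESCs, and 8.85% and 18.0% in 4F-iPSCs. The other 18 CpGs had means from 0.381% to 1.62% in the 6 libraries, and none of them exceeded 3.40% in any library. The same gap was present across the genome. In islands whose other CpGs averaged under 5%, CpGs in MspI sites had a mean of 9.80% to 19.3% in the 6 libraries, and the other CpGs 0.845% to 1.09%. In 4F-iPSC replicate 2, which had the highest mean of all islands at 19.3%, the *Igf2r* sites were at 18.0%. By single CpGs, the most read of the island, at 12769787 with 1621 reads over the 6 libraries, and the highest in 4F-iPSCs, at 12769700 with 15.0% of 167 reads, were both MspI sites. The lowest in 4F-iPSCs, at 12769733, had 0.362% of 276 reads. The cause of this gap was not tested. In the *Airn* island the 5 CpGs in MspI sites stood at 11.7% and 11.8% in C-iPSCs, and the other 15 at 2.9% and 1.87%. In mESCs the sites had 35.9% and 40.3%, and the other CpGs 31.0% and 35.4%. In 4F-iPSCs the sites had 54.9% and 65.4%, and the other CpGs 55.2% and 58.6%, so replicate 1 showed no such gap.

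Another 15 CpGs of the *Igf2r* island were read but fell short of the minimum. Most lie in one fragment over the first exon and the start itself. In mESCs 0 of 98 and in C-iPSCs 0 of 81 of their CpG reads were methylated, and in 4F-iPSCs 12 of 205. All 12 were in replicate 2, with 1 methylated read at each of 12 CpGs and 0 in replicate 1. At most 16 reads of a cell type covered any of these CpGs, so their levels were not compared.

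Within each library, the *Airn* island was set against the *Igf2r* island. It was the higher in 6 of 6 libraries, by 0.886 to 56.1 points. A two-sided exact permutation test by sign flips gave p = 0.0312, the smallest p that 6 libraries allow. That test pools the 3 cell types and takes the replicates of each as independent, although they may be technical. The gap was 1.61 and 0.886 points in the C-iPSC libraries, 30.6 and 33.7 points in the mESC libraries, and 52.4 and 56.1 points in the 4F-iPSC libraries. The gap in C-iPSCs was smaller than the spread between the replicates of the other cell types. It remained positive in 6 of 6 libraries, with a mean of 29.7 points, when CpGs in MspI sites were left out. Within 1 kb of the starts it turned in C-iPSC replicate 2, where *Airn* had 0.833% and *Igf2r* 3.48%, and the exact permutation test gave p = 0.0625. The two-sided exact p was 0.0938 within 0.5 kb of the starts and 0.0625 on the plus strand alone.

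**Figure D3:**
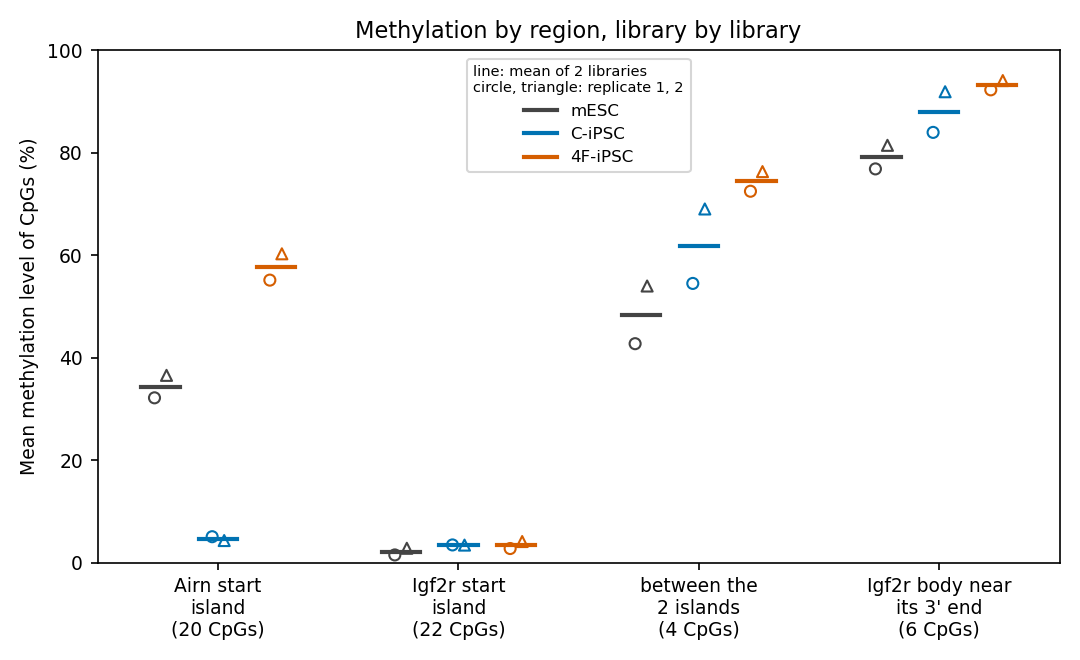
Mean methylation level (%) of the compared CpGs in the Airn island, the Igf2r island, the 4 CpGs between them and the 6 CpGs nearer the 3′ end of Igf2r. Circles and triangles are replicates 1 and 2 and lines their means. In the Airn island C-iPSCs lie lowest at 4.74%, while in both regions outside the islands mESCs lie lowest.

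Outside the islands the locus was methylated in all cell types, and mESCs, not C-iPSCs, were the lowest. A fragment at chr17:12690939-12691048 in *Igf2r* intron 41 had 87.8% and 89.2% in C-iPSCs, 73.8% and 80.7% in mESCs, and 92.9% and 93.2% in 4F-iPSCs. A fragment at chr17:12698443-12698530 in *Igf2r* intron 33, whose last site is in exon 33, had 79.1% and 93.5% in C-iPSCs, 78.9% and 81.6% in mESCs, and 91.3% and 93.8% in 4F-iPSCs. Between the islands, a fragment at chr17:12751283-12751362, in *Igf2r* intron 1 and about 10 kb into *Airn*, had 56.7% and 72.1% in C-iPSCs, 42.6% and 58.1% in mESCs, and 76.3% and 78.8% in 4F-iPSCs. In all of these regions the libraries of C-iPSCs and mESCs lay nearer to each other than at the *Airn* island, and in the second and the third they overlapped.

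Over these 10 CpGs mESCs averaged 66.8% ± 5.13 (SD, n = 2), C-iPSCs 77.5% ± 7.47 (SD, n = 2) and 4F-iPSCs 85.7% ± 1.85 (SD, n = 2). The difference from mESCs was 18.8 points in 4F-iPSCs and 10.6 points in C-iPSCs, and 4F-iPSCs were 8.20 points above C-iPSCs. Each gave p = 0.333 in the exact permutation test, two-sided, the smallest that 2 against 2 libraries allow. Without C-iPSC replicate 2 or mESC replicate 1, C-iPSCs were 5.35 or 6.999 points above mESCs, and 4F-iPSCs were 2.91 points above C-iPSCs without C-iPSC replicate 1 and 13.5 without C-iPSC replicate 2. Both C-iPSC libraries lay above both mESC libraries at 5 of the 10 CpGs, against 31.8% of all CpGs, and at 0 of 20 CpGs of the *Airn* island. The CpG at 12751308 was the 1 of 10 that was strongly higher in 4F-iPSCs than in mESCs, at 79.2% against 44.1%. In the whole locus 2 of 52 CpGs, or 3.85%, were called in this direction, below the 14.3% of all compared CpGs, and the number was 9 without 4F-iPSC replicate 1, 4 without 4F-iPSC replicate 2 and 8 without mESC replicate 2. A further 17 CpGs outside the islands were read by too few reads to compare, at most 12 in a cell type, and 58 of 74 CpG reads were methylated there in mESCs, 32 of 38 in C-iPSCs and 85 of 96 in 4F-iPSCs.

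The pattern of the *Airn* island was compared with islands at the starts of 5 other genes that are imprinted with methylation on the maternal chromosome, *Kcnq1ot1*, *Zrsr1*, *Nap1l5*, *Peg10* and *Peg3*. C-iPSCs had means of 4.22% to 8.01% at the 5 islands, as at the *Airn* island. In the limma-based model 5 of 5 were called lower in C-iPSCs than in mESCs, with adjusted p values from 1.13e-06 to 0.0148, against 0.0954% of all islands. mESCs had 18.1% at *Zrsr1*, 25.3% at *Peg10*, 26.2% at *Nap1l5*, 33.9% at *Kcnq1ot1* and 39.9% at *Peg3*, which had only 5 compared CpGs. The *Airn* island at 34.4% was thus the second highest of the 6. 4F-iPSCs had 41.5% at *Kcnq1ot1* and 51.8% to 62.7% at the others, with the *Airn* island at 57.7%. 4F-iPSCs were called higher than mESCs at 4 of 5, a call made for 49.4% of all islands, and at *Kcnq1ot1* the difference was 7.57 points with an adjusted p of 0.265 in the same model. Whether the differences at *Airn* differ from those at these islands was not tested.

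**Figure D4:**
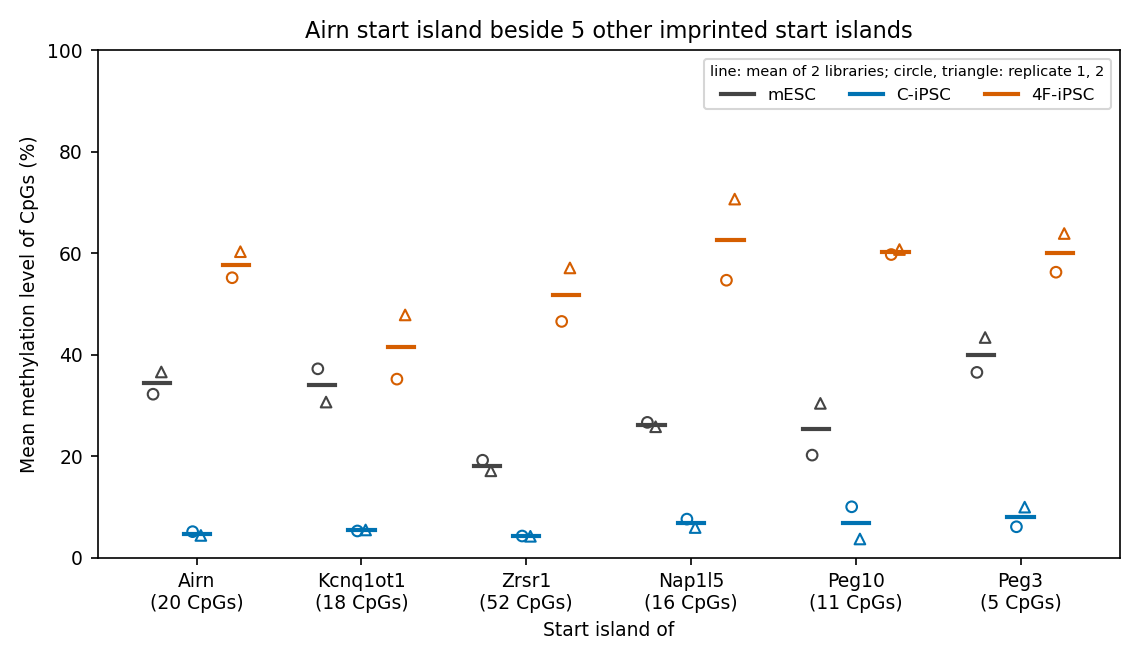
Mean methylation level (%) of the Airn start island beside the start islands of 5 other imprinted genes. Circles and triangles are replicates 1 and 2 and lines their means. C-iPSCs have the lowest mean at each of the 6 islands, at 4.22% to 8.01%, and 4F-iPSCs the highest. At Kcnq1ot1 the libraries overlap, with 4F-iPSC replicate 1 at 35.2% and mESC replicate 1 at 37.2%.

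Of 16692 islands with at least 10 compared CpGs, the 5 whose levels in the 6 libraries lay closest to those of the *Airn* island were ranked by the root mean square difference. The nearest gene starts were those of *Gnas*, for 2 islands, *Plagl1*, *Peg10* and *Nap1l5*. The root mean square difference over the 6 libraries was 3.15 and 3.27 points for the *Gnas* islands, 5.53 for *Plagl1*, 6.16 for *Peg10* and 6.63 for *Nap1l5*. At *Plagl1* the libraries had 6.23% and 9.08% in C-iPSCs, 41.9% and 39.5% in mESCs, and 49.2% and 55.5% in 4F-iPSCs. At the closest *Gnas* island, of 46 CpGs, they had 6.99% and 8.90% in C-iPSCs, 29.7% and 33.1% in mESCs, and 51.8% and 57.9% in 4F-iPSCs. The likeness is a description over 6 libraries and was given no test.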

How the data were processed

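The authors aligned RRBS read pairs (paired ends of size-selected MspI fragments) to mm10 with BSMAP (version 2.90 in the submitters' processing notes), kept uniquely mapped pairs and called levels with MOABS. For each library they deposited, per CpG, the count of reads and of methylated reads, in total and by strand, and the level as a fraction. The counts were used as deposited, with no normalization, and the fraction was recomputed from them. Duplicate reads could not be removed from counts.

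Positions are 1-based, on GRCm38 with GENCODE vM21 starts. CpG islands were joined windows of 200 bp with GC of at least 0.5 and an observed-to-expected CpG ratio above 0.6. Island reads were tested by a quasi-binomial model, 2 libraries against 2. Dispersions were shrunken with limma 3.58.1 in R 4.3.3, with depth as covariate and a minimum of 1, and p-values adjusted by Benjamini-Hochberg over islands with at least 3 compared CpGs. The prior was fitted on islands with summed levels from 0.1 to 0.9 in both cell types. It had infinite weight, so an island's own dispersion did not enter. CpGs were tested by Fisher's exact test on summed reads, written out in code with the log-gamma function of scipy 1.17.1. Both tests were checked on simulated data.

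The members, lists and tests were chosen with earlier results of these data known. Genes and CpGs named were those of the locus, the most read CpG of each start island, its highest and lowest in 4F-iPSCs, those in TGCCGC matches, comparison islands from a list and the 5 most alike islands. Alternatives were the read minimum, island definition, strand, test, pooling of reads, replicate block and leaving out each library. One, leaving out CpGs in MspI sites, was chosen after seeing the data.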

Additional observations from a re-analysis of the deposited data

How the results depend on the processing

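The 3 differences at the *Airn* island kept their direction in 15 alternatives each, from 18.2 to 31.3 points for 4F-iPSCs and from -33.1 to -26.3 for C-iPSCs, both against mESCs, and from 49.5 to 60.9 between 4F-iPSCs and C-iPSCs. Every call held but 1, that of C-iPSCs against mESCs without mESC replicate 1 (adjusted p = 0.194 in the limma-based model, -31.8 points). Leaving out each library, this difference ran from -31.8 to -27.5 points. The gap between the islands within libraries was 29.2 points within 1 kb of the starts, 30.5 points within 0.5 kb and 30.3 points on the plus strand, and no longer passed the exact permutation test (p from 0.0625 to 0.0938), the gap within 1 kb being negative in C-iPSC replicate 2. Without each library it was 23.8 to 34.9 points, where 5 libraries cannot give a p under 0.0625. Deviations of same-numbered libraries correlated at -0.279 to 0.045, so libraries of the same number did not vary together. The value of -0.279, for mESCs and 4F-iPSCs, goes with libraries of unlike number deviating alike. Whether these shared a batch was not tested. With the replicate number as a block, the *Igf2r* island passed against mESCs, by 1.02 points in 4F-iPSCs and 0.917 points in C-iPSCs. That test counts reads without the library spread. The block changed no other call.

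The number of strongly differential CpGs between 4F-iPSCs and mESCs, 2 in the report, was 1 with 10 reads in each library, 0 on the plus strand, 6 on the minus strand, 1 without CpGs in MspI sites, 1 by the quasi-binomial model, 0 with a minimum difference of 0.5 and 3 to 9 without each library. Between C-iPSCs and mESCs it was 0 with a minimum difference of 0.5 and 4 to 10 without each library, and between 4F-iPSCs and C-iPSCs it was 12 with that minimum. Outside the islands, 4F-iPSCs were 24.8 points above mESCs on the minus strand and 24.2 without CpGs in MspI sites. With windows of 1 kb around the starts in place of the islands, part of the *Airn* island counts as outside, and C-iPSCs minus mESCs became -9.94 points there and 4F-iPSCs minus C-iPSCs became 28.6 points. Depth limits fragment 1 of the *Airn* island most, with as few as 7 reads at a CpG in a library.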
